A study of Mus musculus with 4 samples.

Results

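The S100 calcium-binding proteins were followed as 10 genes of the mouse, S100a1, S100a3, S100a4, S100a6, S100a8, S100a9, S100a10, S100a11, S100a13 and S100a14, in a comparison of 4T1-S with 4T1-A. They were chosen by gene name among the spots other than controls, each was represented by 1 probe, and they are 10 of the 27658 named genes of the array. Both sub-lines stem from 4T1, a transplantable line grown from a mammary carcinoma of a BALB/c mouse. The series title presents 4T1-S as strongly immunogenic, and the labels give no treatment, time, genotype or passage for either sub-line beyond the parental line. Total RNA of 2 samples per sub-line, numbered as replicates 1 and 2, was read on 4 one-colour expression arrays.

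S100 proteins are small vertebrate proteins that bind calcium through a pair of EF-hand motifs and mostly act as dimers. Inside cells they bind partners such as annexins and non-muscle myosin and bear on motility and membrane organization. Some are secreted and act as damage signals on Tlr4 and on Ager, the receptor for advanced glycation end products. In mammary tumours S100a4 is known for its link to metastasis, and S100a8 and S100a9 for their link to myeloid cells.

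All 4 arrays lay on 1 slide in 1 scan, with 4T1-A at the first and 4T1-S at the last positions, so position and sub-line cannot be told apart. Whether the paired samples were grown as separate cultures is not in the labels, and p-values measure only the spread between them, which may be technical. Between 54.9 and 59.2 percent of spots were well above background per array, and across 16161 genes, which are not independent replicates, r between replicates was 0.992 for 4T1-A and 0.993 for 4T1-S. All 14 markers listed for mammary carcinoma epithelium were well above background on every array. Their summed ratio to the array's 75th percentile was 362 and 378 for 4T1-A and 321 and 269 for 4T1-S. The sums rest mostly on the keratins Krt8, Krt18 and Krt7. Krt8 alone had ratios of 139, 155, 130 and 127 on these arrays in the same order. Of these 14, 0 rose and 7 fell in 4T1-S, namely Epcam, Cldn7, Cldn4, Krt19, Krt14, Cdh1 and Grhl2, with Epcam, an epithelial adhesion molecule, 13.8-fold lower (-3.78 ± 0.21 on the log2 scale, SE, adjusted p = 5.48e-05), while Krt8 and Krt18, the paired simple keratins, differed by -0.19 ± 0.18 and -0.14 ± 0.25 and did not pass. The cadherin Cdh1 missed the threshold once 4T1-S replicate 1 or replicate 2 was dropped (adjusted p = 0.100 and 0.0935), and Grhl2 once any 1 of the 4 arrays was (0.0592 to 0.189). No filter on background ended the calls of Cdh1 (0.0699), Krt19 (0.0515) and Grhl2 (0.112), spike-in scaling those of Cdh1 (0.318) and Grhl2 (0.824), and 5 other alternatives that of Grhl2 (0.0505 to 0.232). The part of this difference in the S100 values was not tested.

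The start regions of the genes show how closely the family is packed on mouse chromosome 3. RefSeq (GRCm38.p6) gave a window of 250 bases before to 50 bases after a start for 8 of the 10 genes, with several starts for S100a3 and 11 windows in all. The divergent starts of S100a1 and S100a13 had 104 bases between them, and the stretch below, chr3:90514301-90514464 on the plus strand, is shown because both genes were measured and share it. Capitals mark the bases between the 2 starts, and the flanks are the first 30 bases of each transcript, with S100a1 read to the left.
S100a1 and S100a13: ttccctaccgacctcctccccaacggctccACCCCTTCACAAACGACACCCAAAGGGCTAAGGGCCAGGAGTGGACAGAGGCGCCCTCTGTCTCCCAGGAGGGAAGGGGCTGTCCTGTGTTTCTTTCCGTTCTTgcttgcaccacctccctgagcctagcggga

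The next 4 sequences are shown because they pair genes well above background on every array, S100a4 and S100a6, with genes well above it on none, S100a8 and S100a9. Each runs from 250 bases before the start to 30 after it, and capitals mark TATAAA, the letters of a TATA box, on the strand of the gene. S100a4 is chr3:90603520-90603799 (plus strand), S100a6 is chr3:90612644-90612923 (plus strand), S100a8 is chr3:90668821-90669100 (plus strand) and S100a9 is chr3:90695692-90695971 (minus strand).
S100a4: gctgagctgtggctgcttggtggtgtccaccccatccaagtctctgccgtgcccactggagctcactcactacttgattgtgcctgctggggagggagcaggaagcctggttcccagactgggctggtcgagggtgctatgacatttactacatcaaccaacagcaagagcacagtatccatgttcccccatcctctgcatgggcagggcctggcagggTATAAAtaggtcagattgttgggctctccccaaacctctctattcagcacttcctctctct
S100a6: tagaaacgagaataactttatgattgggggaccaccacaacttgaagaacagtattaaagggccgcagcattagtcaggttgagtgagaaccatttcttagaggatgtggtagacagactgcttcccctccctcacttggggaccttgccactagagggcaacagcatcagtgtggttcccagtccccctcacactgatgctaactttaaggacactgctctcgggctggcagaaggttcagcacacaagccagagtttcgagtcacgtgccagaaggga
S100a8: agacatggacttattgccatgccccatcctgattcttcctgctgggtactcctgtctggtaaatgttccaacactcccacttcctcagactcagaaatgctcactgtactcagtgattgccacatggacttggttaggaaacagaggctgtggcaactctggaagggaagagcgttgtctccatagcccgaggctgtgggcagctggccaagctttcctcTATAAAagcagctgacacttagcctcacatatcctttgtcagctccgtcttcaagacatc
S100a9: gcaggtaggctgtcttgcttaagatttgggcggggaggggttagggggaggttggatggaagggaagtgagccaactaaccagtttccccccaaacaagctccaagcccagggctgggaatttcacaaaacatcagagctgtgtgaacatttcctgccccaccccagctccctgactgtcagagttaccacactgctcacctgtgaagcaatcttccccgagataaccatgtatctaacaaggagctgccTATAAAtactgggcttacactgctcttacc

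TATAAA began 31 bases before the start in S100a4 and 30 before it in S100a8, at the annotated start itself in S100a9, and had no match in the window of S100a6. With either strand counted, it was found in 4 of the 11 windows, of 4 of the 8 genes, and in 13.6 percent of 32851 RefSeq windows of the same length. The remaining gene with a match was S100a3, which was well above background on every array. The letters therefore occurred in genes well above background, S100a3 and S100a4, and in both genes not well above it. The GC box GGGCGG was found in the windows of 3 genes (35.7 percent of all windows), the AP-1 letters TGANTCA in those of S100a11 alone (7.81 percent) and the C/EBP letters TTGCNNAA in those of S100a9 alone (10.8 percent), each searched on both strands, and no matches overlapped in these windows. These matches describe letters and not sites in use.

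No difference between the sub-lines was detected in any S100 member. Of the 10 genes, 8 were well above background on all 4 arrays and were tested, and S100a8 and S100a9 were not well above background on any. Limma called 0 of the 8 higher and 0 lower at an adjusted p under 0.05, and 0 at an unadjusted p under 0.05, with a smallest p of 0.107 and adjusted p between 0.270 and 0.746. Over all 16161 genes tested, 7.01 percent were called (4 percent higher and 3.01 percent lower), 28.7 percent had an unadjusted p under 0.05, and the smallest difference called was 0.75 on the log2 scale.

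Differences are given as log2 of 4T1-S over 4T1-A ± SE (n = 2 arrays per sub-line). In size they ran from 0.11 for S100a6 to 0.49 for S100a3. The median was -0.23 over the 8 genes and 0.13 over all genes tested, and the median size without sign was 0.27 against 0.31. Under the main scaling, the 95% interval lay within a 2-fold change either way for 7 of the 8, and only that of S100a3 went beyond it. The difference was negative for 6 genes and positive for 2.

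**Figure D1:**
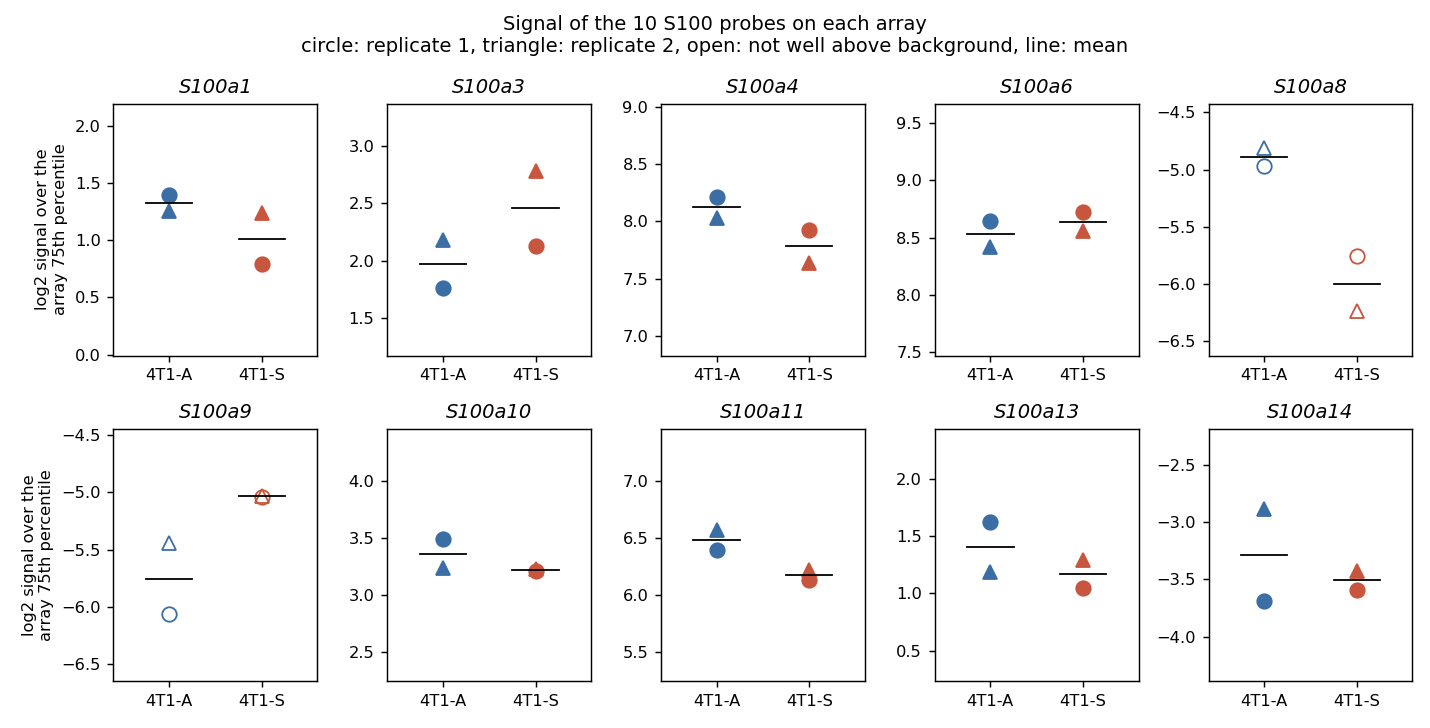
Signal of each S100 probe on the 4 arrays, as log2 of its ratio to the 75th percentile of the array (vertical axes of equal span, centred on each gene), by sub-line; circles are replicate 1, triangles replicate 2, open symbols were not well above background and the line is the mean. S100a8 and S100a9 have open symbols throughout, and the arrays of S100a3, S100a6, S100a13 and S100a14 overlap between sub-lines.

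Levels are given as the ratio of the processed intensity to the 75th percentile of that array, and the signals of different probes are not compared, since probes differ in brightness. S100a4, or metastasin, binds the heavy chain of non-muscle myosin IIA and promotes cell motility. Its ratio was 297 and 261 in 4T1-A replicates 1 and 2 and 243 and 199 in 4T1-S replicates 1 and 2. Both 4T1-S arrays were below both 4T1-A arrays, by a gap of 0.10 on the log2 scale, which is less than the distance between replicates. The difference was -0.34 ± 0.20 (adjusted p = 0.301). Under the main scaling, the 95% interval of -0.80 to 0.12 admits at most a 1.75-fold lower or a 1.09-fold higher level. Dropping 4T1-S replicate 2 brought the difference to -0.20. In these bulk RNA samples the share of cells with the transcript and the amount of it per cell cannot be told apart.

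S100a6, or calcyclin, binds the calcyclin-binding protein Cacybp and is abundant in proliferating and epithelial cells. Its ratio was 400.0 and 342 on the 4T1-A arrays and 423 and 377 on the 4T1-S arrays, and no spot of it was saturated. The sub-lines overlapped, and the difference was 0.11 ± 0.19 (95% interval -0.34 to 0.56, adjusted p = 0.746). Its sign turned with the scaling, at -0.18 with scaling to the median of each array and -0.25 with quantile normalization, and it was -0.0028 without 4T1-A replicate 2. With any other array left out it lay between 0.03 and 0.22, and with normexp it was 0.01.

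S100a11, or calgizzarin, forms a complex with annexin A1 at membranes. Its ratio was 83.9 and 94.9 on the 4T1-A arrays and 70.1 and 74.3 on the 4T1-S arrays, so that the arrays of the sub-lines did not overlap. The difference was -0.31 ± 0.19 (95% interval -0.74 to 0.13, adjusted p = 0.318).

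S100a10, or p11, has lost calcium binding and joins annexin A2 in a tetramer that holds plasminogen at the cell surface. Its ratio was 11.3 and 9.41 on the 4T1-A arrays and 9.24 and 9.38 on the 4T1-S arrays. 4T1-A replicate 1 stood highest and the other 3 arrays lay close together, with a difference of -0.15 ± 0.19 (95% interval -0.59 to 0.30, adjusted p = 0.659). Dropping 4T1-A replicate 1 brought it to -0.015, and dropping 4T1-A replicate 2 to -0.28.

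S100a1, which regulates calcium cycling in muscle, had a ratio of 2.63 and 2.38 on the 4T1-A arrays and 1.73 and 2.35 on the 4T1-S arrays. 4T1-S replicate 1 was the low array, and 4T1-S replicate 2 lay only 0.02 on the log2 scale below 4T1-A. The difference was -0.31 ± 0.22 (95% interval -0.81 to 0.19, adjusted p = 0.375), moving to -0.09 when 4T1-S replicate 1 was left out and to -0.54 when replicate 2 was.

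S100a13, its divergent neighbour, takes part in the release of Fgf1 and Il1a, proteins that lack a signal peptide. Its ratio was 3.08 and 2.28 on the 4T1-A arrays and 2.07 and 2.45 on the 4T1-S arrays, with overlap between the sub-lines. The difference was -0.24 ± 0.22 (95% interval -0.75 to 0.28, adjusted p = 0.519), and without 4T1-A replicate 1 it shrank to -0.018. Dropping 4T1-A replicate 2 gave -0.45, and dropping replicate 1 or replicate 2 of 4T1-S gave -0.11 or -0.36. Both S100a1 and S100a13 had their lowest array in 4T1-S replicate 1. So did S100a10 and S100a11, which do not share that start region.

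S100a3, a zinc-binding member known from the hair cuticle, had the highest difference among the 8 tested. Its ratio was 3.38 and 4.54 on the 4T1-A arrays and 4.38 and 6.90 on the 4T1-S arrays. Replicate 1 of 4T1-S lay between the 4T1-A arrays and replicate 2 above them. The difference was 0.49 ± 0.27 (95% interval -0.13 to 1.11, adjusted p = 0.270), which admits up to a 2.16-fold higher level. Leaving out 4T1-S replicate 1 gave 0.82 and leaving out replicate 2 gave 0.16. Leaving out 4T1-A replicate 1 gave 0.27 and leaving out replicate 2 gave 0.70. S100a3 passed in none of these fits.

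S100a14, a member of epithelial tissues, was above background on every array but dim. Its ratio was 0.0776 and 0.135 on the 4T1-A arrays and 0.0830 and 0.0931 on the 4T1-S arrays, and the 4T1-A arrays enclosed those of 4T1-S. The difference was -0.22 ± 0.28 (95% interval -0.86 to 0.42, adjusted p = 0.639), with sign turned by normexp background correction (0.10) and without 4T1-A replicate 2 (0.18). It was -0.62 without 4T1-A replicate 1, -0.14 without 4T1-S replicate 1 and -0.48 with quantile normalization.

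Scaling to the median of each array moved each of the 8 differences down, to -0.60 for S100a1, 0.20 for S100a3, -0.63 for S100a4, -0.18 for S100a6, -0.44 for S100a10, -0.60 for S100a11, -0.53 for S100a13 and -0.51 for S100a14, and none passed. The median of all genes tested moved with them, from 0.13 to -0.16.

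Across the 8 genes, the arrays of the sub-lines did not overlap for 4, namely S100a1, S100a4, S100a10 and S100a11, each lower in 4T1-S. Among all genes tested the arrays did not overlap for 59.1 percent, and did so with 4T1-S lower for 18.5 percent.

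**Figure D2:**
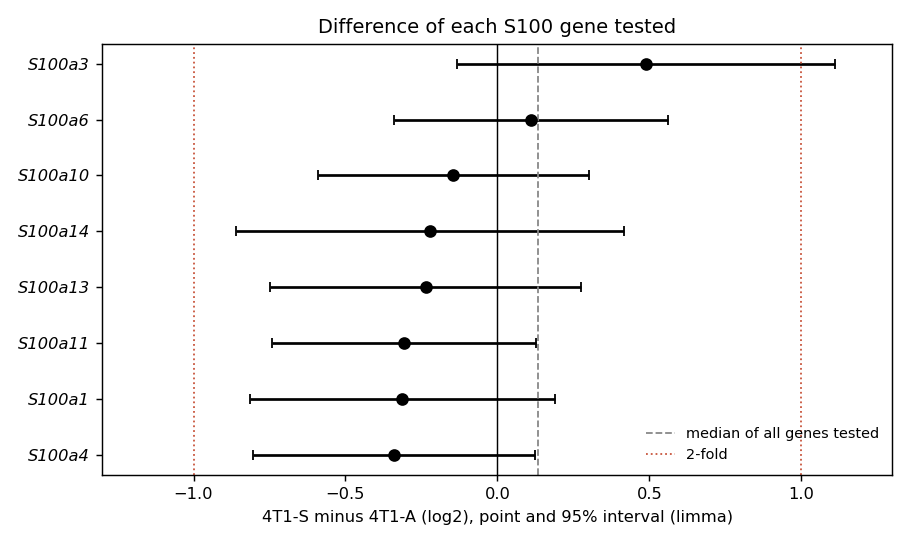
Difference of each S100 gene tested, 4T1-S minus 4T1-A (log2, horizontal axis), as the limma estimate (point) and its 95% interval (bar), with lines at 0, at the median of all genes tested (0.13, dashed) and at 2-fold (dotted). Every interval includes 0, and only that of S100a3 reaches past 2-fold.

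S100a8 and S100a9 form calprotectin, a major protein of neutrophils that sequesters zinc and manganese and signals through Tlr4 and Ager. Neither was well above background in either sub-line, so no fold is given. The processed intensity of S100a8 was 14.9 and 20.6 on the 4T1-A arrays and 7.52 and 6.59 on the 4T1-S arrays, where the dimmest probe well above background had 23.9, 28.2, 24.2 and 27.4 on these arrays in the same order. In 4T1-A it was brighter than each of the 153 negative control spots, and in 4T1-S than 99.3 and 67.3 percent of them. S100a9 ran the other way, at 6.98 and 13.2 on the 4T1-A arrays and 12.3 and 15.2 on the 4T1-S arrays. It exceeded between 96.1 and 100 percent of the negative control spots. In processed intensity the arrays of S100a9 overlapped between sub-lines. As a ratio to the 75th percentile, S100a9 was 0.0149 and 0.0229 on the 4T1-A arrays and 0.0303 and 0.0306 on the 4T1-S arrays. In these ratios the arrays did not overlap for either gene, as for 59.1 percent of all genes tested. The scanner software flagged neither gene as well above background on any array. That flag does not show that no transcript was present.

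Of 21 markers of granulocytes and monocytes on the array, 9 were well above background on all arrays and 6 on none, namely Adgre1, Csf3r, Ctsg, Itgam, Ltf and Tyrobp. The summed ratio of the list was 6.46 and 7.38 on the 4T1-A arrays and 7.34 and 5.89 on the 4T1-S arrays, and overlapped between sub-lines. The gelatinase gene Mmp9, which is also made outside these cells, alone had ratios of 4.11, 3.91, 5.33 and 3.86 on these arrays in the same order, so the sums rest mostly on that 1 probe. Limma called 1 of the 11 tested higher, the Fc receptor Fcgr3 (adjusted p = 0.0284), and 1 lower, the leukocyte integrin Itgb2 (-1.97 ± 0.32, adjusted p = 0.0127). Fcgr3 was not well above background on either 4T1-A array. Its 4T1-S mean was 1.79-fold the dimmest signal well above background on those arrays. Leaving out 4T1-S replicate 1 or replicate 2 ended the call of Itgb2 (adjusted p = 0.108 and 0.0952) and that of Fcgr3 (0.153 and 0.0837). No filter on background ended both as well (0.101 and 0.103), and normexp, scaling to the median, quantile normalization and spike-in scaling ended that of Fcgr3 (0.0734 to 0.465). At an unadjusted p under 0.05, 4 of the 11 were higher and 2 lower, beside 28.7 percent of all genes tested in either direction. The median difference was 0.42, against 0.13 over all genes tested, of which 7.01 percent were called. The part of such cells in the S100 values was not tested.

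For markers of lymphocytes, fibroblasts and endothelium, no array had signal well above background for 4 of 10 lymphocyte markers (Cd3g, Cd79b, Cd8a and Ms4a1), 3 of 9 fibroblast markers (Fap, Lum and Pdgfrb) and 4 of 6 endothelial markers (Cdh5, Emcn, Kdr and Pecam1). Limma called 1 lymphocyte marker higher, the co-receptor Cd4 (adjusted p = 0.0121), and 1 fibroblast marker, the collagen chain Col1a1 (adjusted p = 0.00511). Neither was well above background in 4T1-A. Their 4T1-S means were 2.0-fold and 2.59-fold the dimmest signal well above background on the 4T1-A arrays. Both calls were lost without 4T1-S replicate 2, at adjusted p = 0.108 and 0.0701, and with no filter on background, at 0.0916 and 0.0742. That of Cd4 was also lost with normexp (0.0901) and quantile normalization (0.0706). At an unadjusted p under 0.05, 4 of 6 tested lymphocyte markers, 4 of 4 fibroblast markers and 1 of 1 endothelial marker were higher in 4T1-S and 0 lower, with medians of 0.55, 0.74 and 0.71. Over all genes tested, 28.7 percent had such a p in either direction, 7.01 percent were called and the median difference was 0.13. The summed ratio was higher on both 4T1-S arrays for each of these lists. It takes a single spot of each probe and also counts the markers not above background on any array. It was 0.542 and 0.435 against 0.649 and 0.710 for lymphocyte markers, 0.774 and 1.03 against 1.46 and 1.56 for fibroblast markers, and 0.162 and 0.177 against 0.332 and 0.25 for endothelial markers. Their part in the S100 values was not tested.

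**Figure D3:**
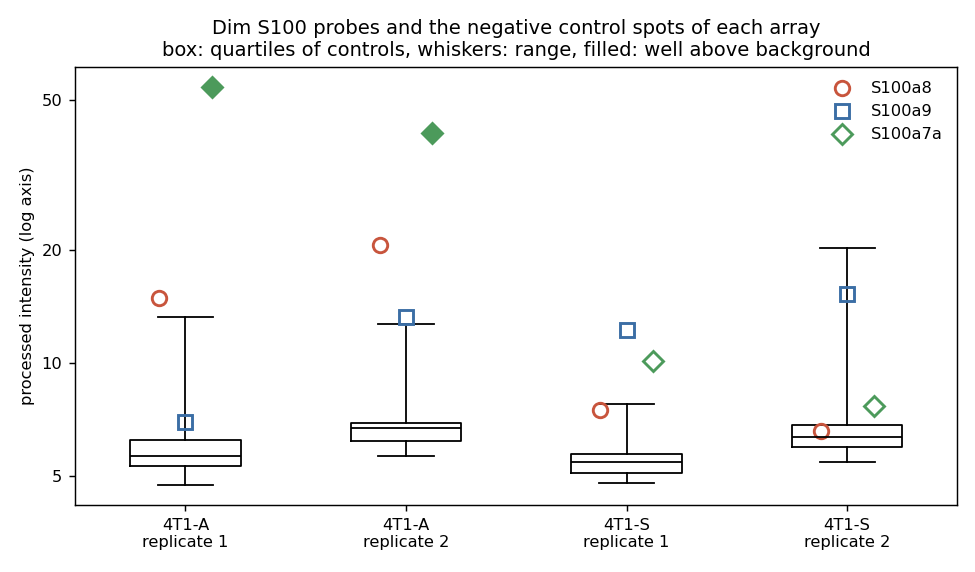
Processed intensity (log axis) of the S100a8, S100a9 and S100a7a probes on each array, beside the negative control spots (box, quartiles; whiskers, full range; 153 spots per array); filled symbols were well above background. The symbols of S100a8 and S100a9 are open on every array, and S100a7a is filled at 54.4 and 41.1 on the 4T1-A arrays and open at 10.2 and 7.70 on the 4T1-S arrays.

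A list of 7 further S100 genes was examined as well, of which 6 were on the array and 5 tested. S100a2, named here after the cluster was examined, was on neither the list nor the array. Of the 5 tested, 0 rose, 1 fell and 4 did not pass, while 7.01 percent of all genes tested were called. S100a7a, a mouse relative of psoriasin of inflamed skin, which the array names by the older symbol S100a15, had a ratio of 0.116 and 0.0711 on the 4T1-A arrays and 0.0251 and 0.0155 on the 4T1-S arrays. It was well above background on both 4T1-A arrays and on neither 4T1-S array. Limma called it lower in 4T1-S (adjusted p = 0.00633). Its 4T1-A mean was 1.59-fold the dimmest signal well above background on the 4T1-S arrays. This factor, like those above for Fcgr3, Cd4 and Col1a1, leaves out the spread between arrays and is no lower limit of the fold. The call was lost with no filter on background (0.0849), with normexp (difference -0.26, 0.355) and without 4T1-S replicate 2 (0.0701), and over 15 alternatives the adjusted p ran from 4.56e-11 to 0.355.

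S100g, or calbindin D9k, which buffers calcium in absorptive epithelium, had a ratio of 0.0717 and 0.0648 on the 4T1-A arrays and 0.122 and 0.108 on the 4T1-S arrays. Both 4T1-S arrays were higher, and the difference of 0.75 ± 0.19 did not pass (adjusted p = 0.0551). S100a16 (0.61 ± 0.21, adjusted p = 0.108), S100a7l2 (0.27 ± 0.19) and S100b, a glial and melanocytic marker (-0.01 ± 0.20), did not pass either, and S100a5 was not above background on any array.

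The 10 members stand in 1 stretch of chromosome 3 in the RefSeq table, from S100a1 to S100a10, with 60 other protein-coding genes, chosen for description after values were seen. Of these 60, 44 were on the array and 18 were tested, of which 0 rose and 1 fell, S100a7a. Their median difference was 0.28. A list of 27 gene symbols of the epidermal differentiation complex and its flanks had 0 of 10 tested called and 12 of 24 on the array above background on none. The list shares tested genes with that stretch and is no separate check. Chtop, an mRNA export factor and its brightest tested member, differed by 0.06 ± 0.19. Of 4 tested fused S100 genes, which join an S100 domain to structural repeats of skin and hair, 0 were called, and trichohyalin, encoded by Tchh, differed by -0.59 ± 0.19 (adjusted p = 0.0933). At an unadjusted p under 0.05, limma had 2 of the former list higher and 0 lower, and 2 of the latter higher and 1 lower. Over all genes tested, 28.7 percent had such a p in either direction, 7.01 percent were called and the median difference was 0.13. The median was 0.10 for the former list and 0.44 for the latter. Each tested gene of the latter other than Tchh had a positive difference.

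Binding partners of S100 proteins mostly missed the threshold. Limma called 0 of 18 tested higher and 1 lower, 17 did not pass, and the median was -0.05. The shares over all genes tested were 4 percent higher and 3.01 percent lower. The gene that fell was Il1a, a cytokine released together with S100a13 (-1.55 ± 0.22, adjusted p = 0.00731), and 1 of 2 4T1-S arrays was above background. It no longer passed without 4T1-S replicate 2 (0.0716), with no filter on background (0.0760) or with normexp (-0.35, 0.143), and over its alternatives the adjusted p ran from 3.04e-05 to 0.143.

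Direct partners of S100a4, S100a6, S100a11 and S100a10 were looked up after values were seen. Myh9, the myosin bound by S100a4, differed by -0.07 ± 0.19. Cacybp, bound by S100a6, differed by -0.19 ± 0.20. Anxa1, bound by S100a11, differed by -0.19 ± 0.18, and Anxa2, bound by S100a10, by -0.20 ± 0.24. None of these 4 passed.

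Among 13 tested receptors of extracellular S100 proteins and their adaptors, the count was 1 higher, 1 lower and 11 not passing, and the median was 0.08. The shares over all genes tested were 4 percent higher and 3.01 percent lower. Cd14, a co-receptor of Tlr4, rose by 1.21 ± 0.18 (adjusted p = 0.00846). Alcam, an adhesion molecule of the immunoglobulin family, fell by 0.97 ± 0.19 (adjusted p = 0.0265). Leaving out 4T1-S replicate 1 or replicate 2 ended the calls of Cd14 (0.0764 and 0.0745) and Alcam (0.122 and 0.149), and leaving out 4T1-A replicate 1 that of Alcam (0.0977). Spike-in scaling (0.204 and 0.543) and no filter on background (0.0571 and 0.0934) ended both, and normexp that of Alcam (0.0505). Ager itself was above background on 1 of 4 arrays and was not tested.

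Regulators of S100 genes had 3 rises, 1 fall and 8 differences that did not pass among 12 tested, and a median of 0.19. Over all genes tested, 4 percent were called higher and 3.01 percent lower, and the median was 0.13. The rises were those of Cebpb, a leucine-zipper factor of myeloid and epithelial cells (0.90 ± 0.21, adjusted p = 0.0454), of Spi1, a myeloid factor well above background on 1 of 2 4T1-A arrays (0.86 ± 0.21, adjusted p = 0.0497), and of Klf5 (0.76 ± 0.18, adjusted p = 0.0484), a zinc-finger factor of epithelium. Tcf7l2, a partner of beta-catenin, fell by 1.20 ± 0.21 (adjusted p = 0.0152), but the mean of its probes gave -0.32 (0.318). Without 4T1-S replicate 1 or replicate 2 the calls of Cebpb (0.195 and 0.117), Spi1 (0.194 and 0.164), Klf5 (0.173 and 0.179) and Tcf7l2 (0.0566 and 0.124) were lost. Those of Cebpb (0.132) and Klf5 (0.166) were also lost without 4T1-A replicate 1, and those of Spi1 (0.111) and Klf5 (0.0686) without 4T1-A replicate 2. Spike-in scaling (adjusted p between 0.208 and 0.832) and no filter on background (0.0869 to 0.126) also ended the 4 calls. Normexp, scaling to the median and quantile normalization each ended those of Cebpb (0.0700, 0.121 and 0.0752), Spi1 (0.109, 0.140 and 0.166) and Klf5 (0.0557, 0.173 and 0.0734). The filter on all 4 arrays ended those of Cebpb (0.0533) and Klf5 (0.0569), the mean of a gene's probes that of Klf5 (0.0553), and centring on the genes tested (0.0526) or keeping spots with outlier flags (0.050013) that of Spi1.

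**Figure D4:**
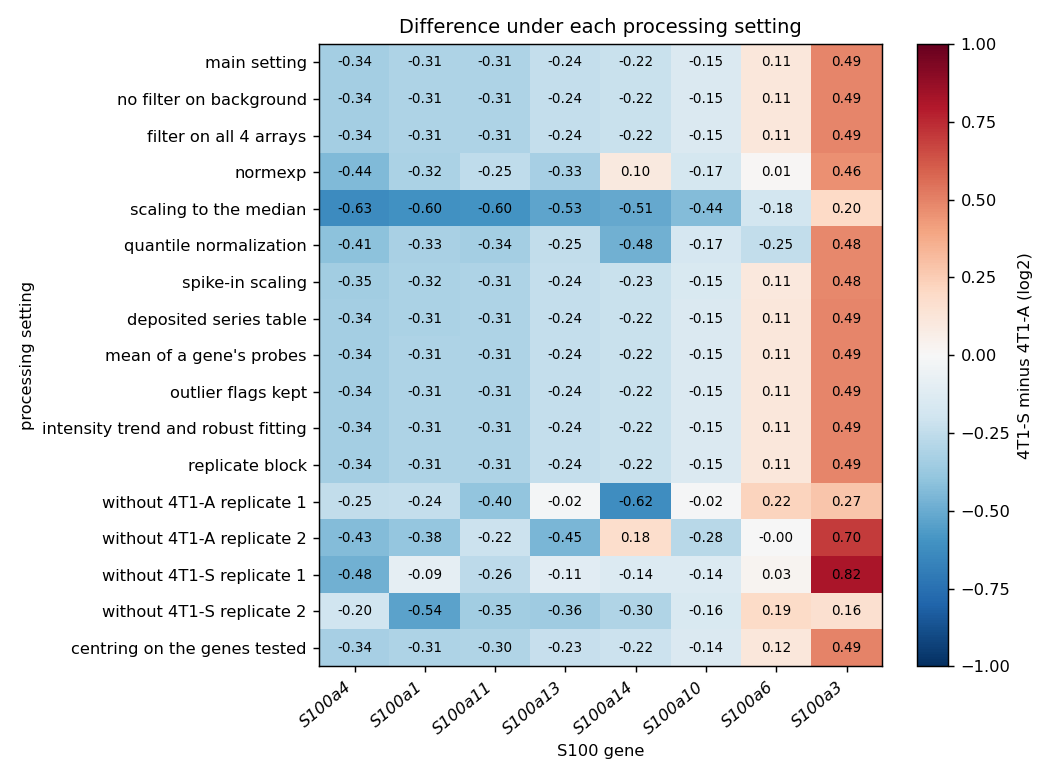
Difference of each tested S100 gene, 4T1-S minus 4T1-A (log2, colour and printed value), under the main setting and 16 processing alternatives. S100a1, S100a4, S100a10, S100a11 and S100a13 stay negative and S100a3 positive in each row, while S100a6 and S100a14 change sign in some.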

How the data were processed

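Intensity values are the processed signal of Agilent Feature Extraction 9.1 (submitters' processing notes), deposited by the authors with spatial and multiplicative detrending switched on, per the file headers. Per the labels' protocols, Cy3-labelled cRNA was made from total RNA. A table deposited for the series gives a ratio on the linear scale: its column medians were 0.078, 0.076, 0.098 and 0.091, and 76.8 to 81.3 percent of its spots lay within 1 percent of processed intensity over the array's 75th percentile. The file of 4T1-A replicate 1 holds rounded values.

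Processed intensity was divided by the 75th percentile of its array and taken to log2. Spots with an outlier flag (5 to 9 per array) were left out and the spots of a probe averaged. The summed ratios of marker lists and the ratios of Mmp9 instead take a single spot of each probe. Of 41174 probes, 22951 were named by RefSeq accession, 9768 by symbol and 8455 as in the file of 4T1-S replicate 2. A gene was its brightest probe, tested if well above background on both arrays of a sub-line (16161 genes). Limma 3.58.1 in R 4.3.3 (lmFit, eBayes, 2-sided, residual degrees of freedom 2, prior 5.73) gave p-values, adjusted by Benjamini-Hochberg with a threshold of 0.05. The procedure was tested on simulated data. Precision is limited by the number of arrays.

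The members and lists were chosen with earlier results of these data known. Named genes are all members, up to 2 rises and 2 falls of each list or else its brightest tested member, and cell type markers that were called or, as defining markers, not above background on any array. Mmp9, S100a2, Myh9, Cacybp, Anxa1, Anxa2, Klf5, Krt7, Krt8, Krt18, Ager, S100g, S100a16, S100b, S100a7l2 and S100a5 were named outside this rule, after their values were seen. Alternatives covered filter, background correction, scaling, the deposited table, probes, outlier flags, the variance model, the replicate block and leaving out each array.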

Additional observations from a re-analysis of the deposited data

How the results depend on the processing

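Limma called 0 of the S100 members under the main setting and under each of the 16 alternatives. The number with an unadjusted p under 0.05 went from 0 to at most 3, with scaling to the median, where the median of all genes tested moved from 0.13 to -0.16 and that of the members from -0.23 to -0.52. The smallest adjusted p of a member over all settings was 0.0625, for S100a3 with the replicate block. Sign turned for S100a6 with scaling to the median (-0.18), with quantile normalization (-0.25) and without 4T1-A replicate 2 (-0.0028, in a range up to 0.22 when 1 array was left out), and for S100a14 with normexp (0.10) and without 4T1-A replicate 2 (0.18, in a range from -0.62). It also turned for S100b with normexp (0.15) and without 4T1-A replicate 2 (0.05) or 4T1-S replicate 2 (0.16), and for S100a7l2 with scaling to the median (-0.025) and quantile normalization (-0.067). With no filter on background, S100a8 and S100a9 entered the fit and did not pass (adjusted p = 0.110 and 0.201).

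The count over all genes, 1133 (646 higher and 487 lower), was 271 with no filter on background, 616 with the filter on all 4 arrays, 511 with normexp, 729 with quantile normalization and 385 with spike-in scaling. It ranged from 306 to 2378 when 1 array was left out, being 306 and 390 without 4T1-S replicates 2 and 1 in that order and 2378 without 4T1-A replicate 2. Scaling to the median changed the split to 189 higher and 882 lower, quantile normalization to 266 and 463, and spike-in scaling to 137 and 248. The 8 calls among the S100-related lists became 1, 3, 2 and 2 with no filter, the filter on all 4 arrays, normexp and spike-in scaling, and ranged from 0 to 9 when 1 array was left out, being 0 and 2 without 4T1-S replicates 2 and 1 in that order. Fewer genes and fewer samples enter the fit in some of these. For the others the cause was not tested.

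The replicate numbers of the 2 sub-lines share only a number. With it as a replicate block the count over all genes was 3683 and that of the S100-related lists 19, and S100g passed (adjusted p = 0.0172), while 0 members were called. Deviations of same-numbered arrays correlated at 0.42 over genes, a hint from the data and not the design. S100g also passed with the mean of a gene's probes (0.0495), and S100a16 with the block (0.0398) and without 4T1-A replicate 2 (0.0489). Each member had 1 probe, so no further probe could be compared, and all arrays lay on 1 slide, so no slide block could be fitted. Centring on the genes tested was added after seeing the data.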
